A study of Arabidopsis thaliana with 12 samples.

Results

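The 7 genes described here are the phytosulfokine genes of the Arabidopsis root tip: the precursor genes PSK1 (AT1G13590), PSK2 (AT2G22860), PSK3 (AT3G44735), PSK4 (AT3G49780) and PSK5 (AT5G65870), and the receptor genes PSKR1 (AT2G02220) and PSKR2 (AT5G53890). They were chosen from 37138 loci by locus code, a rule that uses no measured value, with earlier results of these data known. RNA sequencing compared 4 groups of root tips with 3 libraries each: the scl5 scl21 pat1 triple mutant on bleomycin, the triple mutant on control medium, Col-0 on bleomycin and Col-0 on control medium. Col-0 is the common laboratory wild type, and the triple mutant is named for mutations in a set of related GRAS-domain transcription regulators, SCL5, SCL21 and PAT1. The series asks about regeneration after wounding, and bleomycin, which breaks DNA strands and kills cells in root meristems, is the treatment.

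Each library came from the tips of a plate of about 100 sown seeds, so a library is a pool of seedlings. At 7 days after sowing the seedlings were moved on their mesh to MS medium with 0.5 µg/ml bleomycin for 24 h or to the same medium without it, and the last 0.2 cm of the roots was collected. No transgene or Cre driver is named for any group. The libraries held between about 36286000 and about 40875000 assigned reads. In the triple mutant, SCL5 and SCL21 were at or near 0 in all 6 libraries, while PAT1 kept 9.76 to 16.9 CPM (read counts scaled to a common library size) on bleomycin and 9.34 to 9.73 CPM on control medium, against 34.3 to 43.3 CPM in Col-0 on bleomycin and 25.5 to 26.1 CPM in Col-0 on control medium. The stem cell niche markers WOX5, PLT1 and PLT2 were read in every library, with summed levels of 34.4 to 62.8 CPM, most of it from PLT1 and PLT2. Of the photosynthetic markers, RBCS1A and LHCB2.1 did not exceed 0.911 CPM. The photosynthetic markers LHCB1.3 and PSBO1 were read in every library, at 4.24 to 20.4 CPM and 6.30 to 17.1 CPM. The third control library of the triple mutant stood apart from the rest on the second principal component of all genes, at -58.5 where the other 11 libraries lay between -29.4 and 28.7, and the fitted values of the 7 genes on bleomycin in the triple mutant and between the genotypes on control medium are also given without it.

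Phytosulfokine is a short secreted plant peptide whose tyrosines carry sulfate groups. It is made as longer precursors, sulfated by the tyrosylprotein sulfotransferase TPST in the Golgi, cut by subtilisin-like proteases, and perceived outside the cell by leucine-rich repeat receptor kinases that act with SERK co-receptors. It was first known from the proliferation of dispersed plant cells in culture, and in roots it is known for promoting cell elongation and for divisions of the quiescent centre. All 5 precursors carry the same mature peptide, so the genes differ in where and when they are expressed and in the sequence around it.

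The coding stretches around the mature peptide show that shared core. Each was read from the RefSeq annotation of TAIR10.1, on the coding strand and 5′ to 3′. The stretches lie at chr1:4648553-4648606 on the plus strand for PSK1, chr2:9738021-9738074 on the plus strand for PSK2, chr3:16291388-16291441 on the minus strand for PSK3, chr3:18466201-18466254 on the plus strand for PSK4 and chr5:26352002-26352055 on the plus strand for PSK5. Each lies within a single coding exon, and the capitals mark the 15 bases that encode the mature peptide.
PSK1: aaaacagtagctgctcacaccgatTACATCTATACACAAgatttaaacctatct
PSK2: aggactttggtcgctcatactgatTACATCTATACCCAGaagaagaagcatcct
PSK3: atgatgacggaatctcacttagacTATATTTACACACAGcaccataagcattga
PSK4: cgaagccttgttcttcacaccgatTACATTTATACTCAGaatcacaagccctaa
PSK5: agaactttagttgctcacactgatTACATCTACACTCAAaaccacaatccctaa
No 2 of the genes write the peptide with the same codons: the capitals differ at 2 to 4 of the 15 bases between any 2 precursors. Over the whole 54 bases the fewest differences were between PSK4 and PSK5, at 13 bases, and the most between PSK1 and PSK3, at 28. The peptide sits at the end of every precursor, after 68 to 77 codons and with 5 to 7 codons left, the stop codon included. The coding sequences are 264 bases long in PSK1 and PSK2, 246 in PSK3, 240 in PSK4 and 234 in PSK5, and the receptors are much longer, with 3027 coding bases in PSKR1, which has a single exon, and 3111 in PSKR2. The annotation places AT1G08905, not analysed here, across PSK1 on the same strand, so reads from that locus cannot be told apart from reads of PSK1; no other gene of the 7 is overlapped.

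The order of the levels was led by PSK1 in all 4 groups. In TPM, which scales reads to library size and transcript length, PSK1 averaged 82.3 ± 7.86 on bleomycin and 82.7 ± 27.2 on control medium in the triple mutant, and 110 ± 19.9 on bleomycin and 66.8 ± 6.75 on control medium in Col-0 (SD, n = 3 each). Every library of a group had PSK1 above every library of the gene next in order. PSK1 alone made up 60.9% to 77.9% of the summed TPM of the 5 precursors over the 12 libraries.

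**Figure D1:**
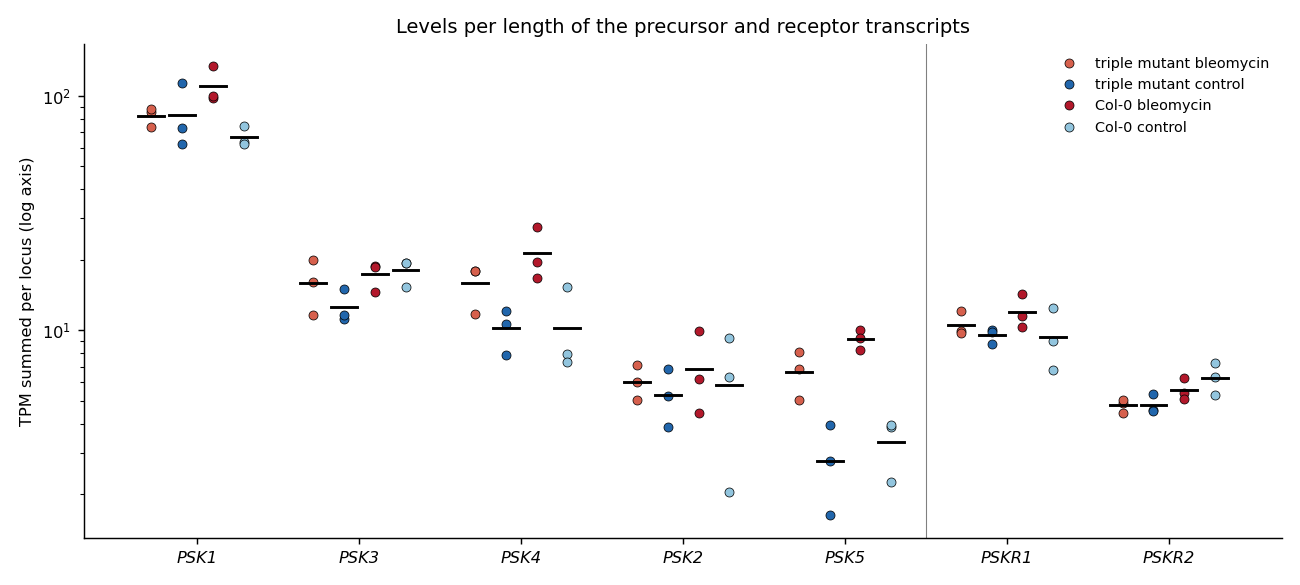
Level of each of the 7 genes in TPM on a log axis, with a point for each of the 3 libraries of a group and a line at the mean. PSK1 lay between 62.0 and 133 TPM, above every other gene in all groups.

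Behind PSK1 the levels lay closer together and the order partly changed with treatment. PSK4 came next on bleomycin, at 15.9 ± 3.59 TPM in the triple mutant and 21.3 ± 5.56 TPM in Col-0, and PSK3 came next on control medium, at 12.6 ± 2.13 TPM in the triple mutant and 18.0 ± 2.36 TPM in Col-0 (SD, n = 3 each). The libraries of PSK3 and PSK4 overlapped in all 4 groups, so their order is not separated from the spread. PSKR1 was 4th in every group, with 10.6 ± 1.31 and 9.56 ± 0.717 TPM in the triple mutant on bleomycin and on control medium, and 12 ± 2.06 and 9.42 ± 2.83 TPM in Col-0 on bleomycin and on control medium (SD, n = 3 each).

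The lowest gene was PSKR2 in both bleomycin groups and PSK5 in both control groups. PSKR2 had 4.80 ± 0.304 TPM and PSK5 6.67 ± 1.51 TPM in the triple mutant on bleomycin, and 5.59 ± 0.592 and 9.21 ± 0.914 TPM in Col-0 on bleomycin (SD, n = 3 each). On control medium PSKR2 had 4.81 ± 0.464 TPM and PSK5 2.79 ± 1.17 TPM in the triple mutant, and 6.29 ± 0.989 and 3.36 ± 0.962 TPM in Col-0 (SD, n = 3 each). PSK2 lay next to these genes in every group, and its libraries overlapped those of PSKR2 in all 4. The ratio of PSKR1 to PSKR2 was between 0.934 and 2.71 on the TPM scale, and it was under 1 in a single library, the third Col-0 control.

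The summed TPM of the 5 precursors was 118, 130 and 132 in the triple mutant on bleomycin and 95.8, 99.5 and 146 in the triple mutant on control medium. In Col-0 it was 157, 192 and 147 on bleomycin and 122, 95.6 and 94.8 on control medium. The treated and control libraries did not overlap in Col-0 and did in the triple mutant, where the third control library had the highest sum. The 2 receptors together stayed between 13.3 and 20.6 TPM over the 12 libraries, and their treated and control libraries overlapped in both genotypes.

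The first comparison asks which of the 7 genes changed on bleomycin in Col-0, and PSK5 was the only one that passed the test. Levels within a gene are given from here in CPM, on library sizes scaled by the TMM method. A gene is called changed at an adjusted p under 0.05 in edgeR's quasi-likelihood test over 21561 loci, and all 7 genes passed the filter on low counts. By this rule 1 of the 7 genes was called, and it was higher, where 6.75% of all tested loci were called and 4.29% were called higher. All 3 Col-0 bleomycin libraries lay above all 3 Col-0 control libraries for PSK1, PSK4 and PSK5, 3 of the 7 genes, where 15.3% of all tested loci did so. The median log2 fold change was 0.30 over the 7 genes and 0.01 over all tested loci.

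PSK5 encodes the precursor that is best known from the quiescent centre. It had 6.48, 8.83 and 7.22 CPM in the 3 Col-0 libraries on bleomycin and 3.09, 1.96 and 3.43 CPM in the 3 Col-0 control libraries. Every treated library was above every control library. PSK5 rose by 1.41 on the log2 scale (SE 0.36, edgeR adjusted p = 0.0363), a 2.65-fold change with a 95% interval of 0.63 to 2.19 on the log2 scale. Within the replicate numbers, the bleomycin library of Col-0 was 2.1 to 4.5 times the control library of the same number. The share of PSK5 in the summed precursor TPM was 5.26% to 6.33% in the treated and 2.36% to 4.18% in the control libraries of Col-0. The call needs all 6 Col-0 libraries: leaving out any one of them gave an edgeR adjusted p between 0.0502, without the first control library, and 0.161, without the second control library, with log2 fold changes of 1.2 to 1.57. The other alternatives kept it called, and over all of them the adjusted p ranged from 0.00340 to 0.161.

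The quiescent centre marker WOX5, looked at beside PSK5 after its values were seen, had 2.5, 3.04 and 1.96 CPM in Col-0 on bleomycin and 0.786, 0.646 and 0.655 CPM in Col-0 on control medium. Its treated libraries were all higher, and it was not called, at a log2 fold change of 1.84 (edgeR adjusted p = 0.106, SE 0.65). PLT1 and PLT2, the other markers of that list, had -0.45 and -0.03 with overlapping libraries. In the triple mutant WOX5 had 1.02, 3.14 and 0.929 CPM on bleomycin and 0.229, 0.312 and 1.01 CPM on control medium, with overlap, at 1.70 (edgeR adjusted p = 0.130). The part of the niche cells in the PSK5 values was not tested.

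PSK4 and PSK1 lay just outside the threshold in Col-0. PSK4 had 35.4, 28.1 and 21.2 CPM in Col-0 on bleomycin and 20.1, 11.4 and 10.4 CPM in Col-0 on control medium, and the lowest treated library was only just above the highest control library. Its log2 fold change was 1.02 (SE 0.30, edgeR adjusted p = 0.0589). PSK1 had 56.9, 86.7 and 57.5 CPM in Col-0 on bleomycin and 44.1, 41.1 and 39.7 CPM in Col-0 on control medium, with the second treated library well above the other two. Its log2 fold change was 0.69 (SE 0.20, edgeR adjusted p = 0.0621).

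The replicate numbers were taken as pairing the Col-0 libraries, from correlations of deviations from the group means, but number 3 was not clearly paired. The third Col-0 control library correlated at 0.118 with the third Col-0 bleomycin library and at 0.202 with the second. With the number as a block, all 3 of PSK1, PSK4 and PSK5 were called in edgeR. The block was fitted over all 12 libraries, those of the triple mutant included. The log2 fold changes were then 0.67 for PSK1 (adjusted p = 0.0334), 1.04 for PSK4 (adjusted p = 0.0120) and 1.36 for PSK5 (adjusted p = 0.0220), and the block also took the loci called in all from 1455 to 3437. Over all alternatives the adjusted p ranged from 0.0168 to 0.199 for PSK1 and from 0.0109 to 0.223 for PSK4. PSK4 also passed without the first Col-0 control library, at a log2 fold change of 1.37 and an edgeR adjusted p of 0.0156, and without the third bleomycin library of the triple mutant, at 0.0441, and PSK1 passed without the third control library of the triple mutant, at 0.0305.

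**Figure D2:**
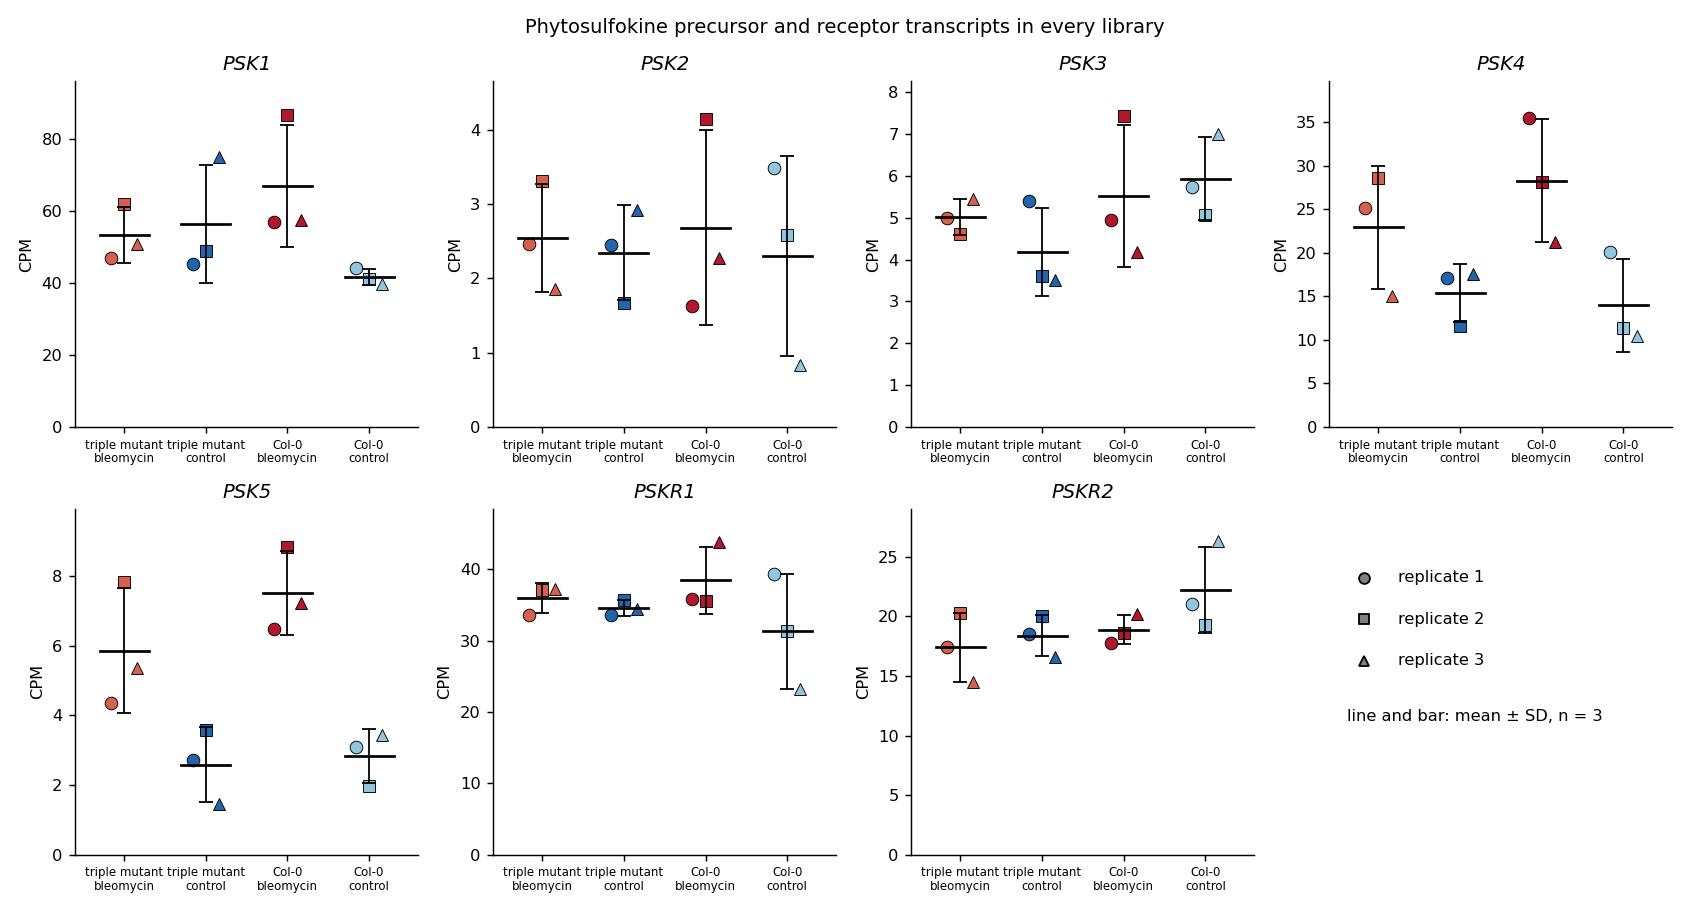
CPM of the 7 genes in each of the 12 libraries, a panel for each gene, with a line at the mean of each group and bars of 1 SD (n = 3). PSK5 in Col-0 lay between 6.48 and 8.83 CPM on bleomycin, above the Col-0 control libraries at 1.96 to 3.43 CPM.

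Several tissue markers had their highest sums in the same Col-0 libraries as PSK4, the first of each group, and others did not. The stem cell niche sums were lowest in these libraries, at 34.4 CPM on bleomycin and 40.4 CPM on control medium. The root cap sums were highest in the second bleomycin and the third control library, at 89.7 and 73.7 CPM. The epidermis and root hair sums were highest in the third bleomycin and the first control library, at 252 and 212 CPM. The xylem markers VND7, XCP1 and XCP2 summed to 175, 81.4 and 105 CPM on bleomycin and 97.4, 39.1 and 44.8 CPM on control medium, and VND7 by itself was lowest in the first treated library. The endodermis markers CASP1, SCR and MYB36 summed to 367, 209 and 278 CPM on bleomycin and 266, 138 and 152 CPM on control medium. The phloem markers APL, SEOR1 and CALS7 summed to 35.1, 24.9 and 22.6 CPM on bleomycin and 19.9, 17.1 and 17.4 CPM on control medium. The photosynthetic markers likewise had their highest sums in the first library of both groups, at 31.3 CPM on bleomycin and 26.7 CPM on control medium.

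None of the xylem, endodermis, phloem and photosynthetic lists had a marker called in Col-0. XCP1, XCP2 and VND7 had log2 values of 1.07, 0.95 and 0.37, all with overlapping libraries. In the endodermis list CASP1 had 1.05, MYB36 0.09 and SCR -0.14, also with overlap. In the phloem list SEOR1 had 1.95 with overlap. CALS7 and APL, at 0.70 and 0.14, were higher in all treated libraries, as were 15.3% of all tested loci. RBCS1A, PSBO1, LHCB2.1 and LHCB1.3 had 1.15, 0.48, 0.44 and -0.02, all with overlap. The root cap list differed: BRN2 was called higher, at 22.7, 26.8 and 19.7 CPM on bleomycin and 12.9, 15.5 and 17.2 CPM on control medium (log2 fold change 0.60, edgeR adjusted p = 0.0409). BRN2 was not called in the triple mutant, at 0.26 (edgeR adjusted p = 0.330). BRN1 was also higher in all treated libraries without a call, SMB overlapped, and the list summed to 70.0 to 89.7 CPM on bleomycin and 55.7 to 73.7 CPM on control medium. Of the marker genes only RBCS1A and LHCB2.1 were at 0 reads in any library. In whole root tips, more or fewer cells of a type and more or less RNA per cell cannot be told apart, and the part of tissue makeup in the PSK4 values was not tested.

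PSK2 and PSK3 were low in CPM and did not pass the test in Col-0. By TPM PSK3 was not low, at 2nd of the 7 genes on control medium and 3rd on bleomycin in Col-0. PSK2 had 1.63, 4.15 and 2.28 CPM on bleomycin and 3.49, 2.58 and 0.832 CPM on control medium, from as few as 33 reads in a library. Its log2 fold change was 0.22, and the 95% interval of -0.89 to 1.34 leaves room for more than a doubling in the treated group (edgeR adjusted p = 0.843). PSK3 had 4.96, 7.44 and 4.18 CPM on bleomycin and 5.74, 5.06 and 7.0 CPM on control medium, with overlapping groups and a fitted difference of -0.10 on the log2 scale (SE 0.28, edgeR adjusted p = 0.870).

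The receptors also stayed short of the threshold in Col-0. PSKR1, the receptor described as carrying most of the phytosulfokine response, had 35.9, 35.6 and 43.9 CPM on bleomycin and 39.3, 31.3 and 23.3 CPM on control medium. The groups overlapped, and the log2 fold change was 0.30 (SE 0.16, edgeR adjusted p = 0.289). PSKR2, its closest relative, had 17.8, 18.6 and 20.2 CPM on bleomycin and 21.1, 19.3 and 26.3 CPM on control medium. These groups overlapped too, and the log2 difference was -0.24 (SE 0.16, edgeR adjusted p = 0.392), although the treated library was below the control library in all 3 replicate numbers. The 95% intervals, -0.06 to 0.65 for PSKR1 and -0.58 to 0.11 for PSKR2, hold no change as large as a doubling.

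In the triple mutant none of the 7 genes was called on bleomycin in edgeR, where 8.01% of all tested loci were called and 4.2% were called higher. At an unadjusted p under 0.05 edgeR counted 1 of the 7 genes and 5403 loci, DESeq2 called 1 of the 7 genes at an adjusted p under 0.05, and limma voom called 0. The gene in both counts was PSK5, which was also the only one of the 7 whose libraries did not overlap with the treated ones higher; 15.4% of all tested loci did so.

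PSK5 had 4.36, 7.85 and 5.37 CPM in the triple mutant on bleomycin and 2.71, 3.59 and 1.45 CPM in the triple mutant on control medium. Every treated library lay above every control library, as in Col-0. The log2 fold change was 1.18 (SE 0.36, edgeR adjusted p = 0.0627), and it was 0.88 (adjusted p = 0.152) without the third control library, which had the lowest PSK5 level of the 12. Over all alternatives the adjusted p ranged from 0.0180, in DESeq2, to 0.206.

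PSK4 had 25.2, 28.5 and 15 CPM in the triple mutant on bleomycin and 17.1, 11.6 and 17.6 CPM in the triple mutant on control medium. The groups overlapped because the third treated library was below 2 of the control libraries, and the log2 fold change was 0.57 (SE 0.30, edgeR adjusted p = 0.253), and 0.67 without the third control library. The xylem markers summed to 144, 82.9 and 85.6 CPM on bleomycin and 60.1, 40.0 and 64.5 CPM on control medium there. Their highest library was the same as for PSK4 on control medium and another one on bleomycin. The endodermis and photosynthetic sums were highest in the first library of both mutant groups, unlike PSK4. These were 357 and 35.0 CPM on bleomycin and 233 and 27.8 CPM on control medium. The phloem sums were highest in the second library of both mutant groups, at 35.5 CPM on bleomycin, as for PSK4, and 21.0 CPM on control medium, unlike PSK4.

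PSK1 had 47.0, 62.1 and 50.9 CPM in the triple mutant on bleomycin and 45.2, 48.8 and 75.2 CPM in the triple mutant on control medium. The highest value was in the third control library, the one that stood apart. The log2 fold change was -0.08 (SE 0.20, edgeR adjusted p = 0.840) with that library and 0.17 (adjusted p = 0.638) without it.

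The other 4 genes overlapped between treated and control libraries of the triple mutant. PSK2 had 2.47, 3.31 and 1.86 CPM on bleomycin and 2.46, 1.67 and 2.92 CPM on control medium. PSK3 had 4.99, 4.61 and 5.45 CPM on bleomycin and 5.40, 3.62 and 3.52 CPM on control medium. Both sets interleave, and the log2 fold changes were 0.12 and 0.26, with edgeR adjusted p-values of 0.914 and 0.593; without the third control library they were 0.30 and 0.14. PSKR1 was steady, at 33.5, 37.0 and 37.2 CPM on bleomycin and 33.6, 35.7 and 34.5 CPM on control medium, with a log2 fold change of 0.06 and a 95% interval of -0.30 to 0.41, or 0.04 without the third control library. PSKR2 had 17.5, 20.3 and 14.5 CPM on bleomycin and 18.5, 20.0 and 16.6 CPM on control medium, with a log2 fold change of -0.08 and a 95% interval of -0.42 to 0.26, or -0.16 without the third control library.

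**Figure D3:**
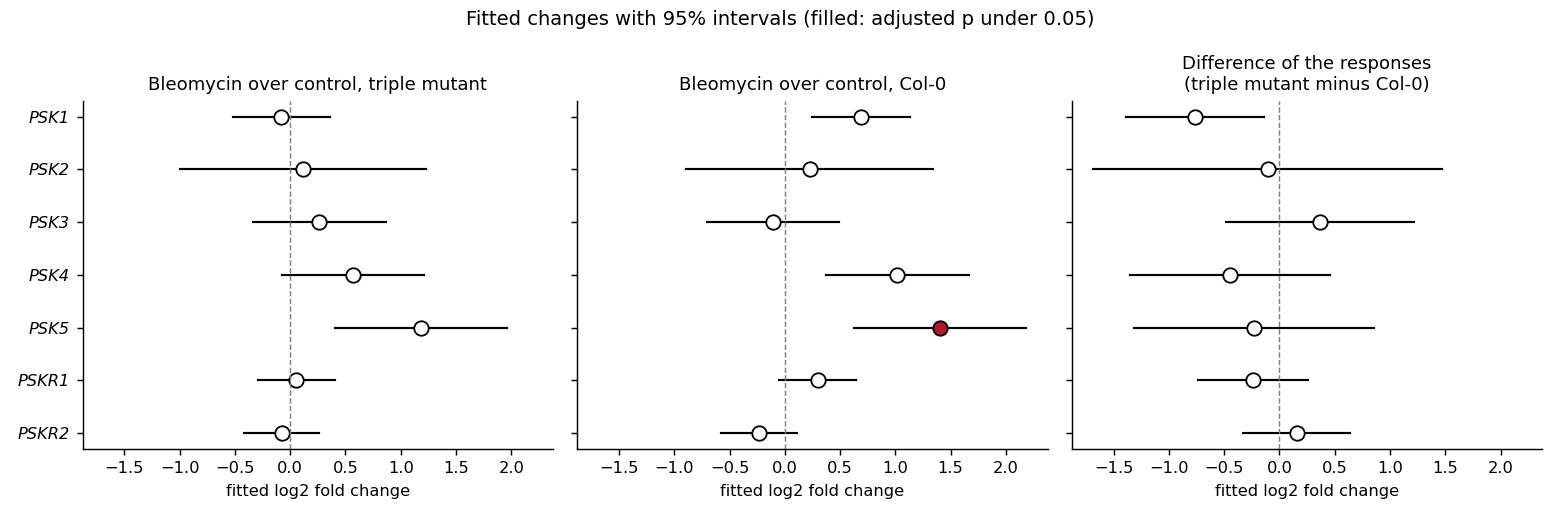
Log2 fold change of the 7 genes with 95% intervals from the edgeR fit, for bleomycin over control in the triple mutant, for the same in Col-0, and for the response of the triple mutant minus that of Col-0; filled points passed the test. PSK5 stood at 1.18 in the triple mutant and 1.41 in Col-0, and the only filled point is PSK5 in Col-0.

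The next comparison sets the triple mutant against Col-0 on each medium, and none of the 7 genes was called in either. On control medium 0.0278% of all tested loci were called in edgeR, at an unadjusted p under 0.05 the count was 0 of the 7 genes and 1034 loci, and DESeq2 and limma voom also called 0 of the 7. PSK1 was the only gene of the 7 whose mutant libraries all lay above the Col-0 libraries, at 45.2 to 75.2 CPM against 39.7 to 44.1 CPM, where 4.68% of all tested loci did so. Its log2 fold change was 0.44 (SE 0.20, edgeR adjusted p = 0.960) and 0.18 without the third mutant control library. PSK3 had the largest negative value of the 7, at -0.51 (SE 0.28, edgeR adjusted p = 0.960), with 3.52 to 5.40 CPM in the triple mutant and 5.06 to 7.0 CPM in Col-0, and it was -0.39 without the third mutant control library. PSK5 had 1.45 to 3.59 CPM in the triple mutant and 1.96 to 3.43 CPM in Col-0 on control medium, a log2 fold change of -0.13 that became 0.16 without the third mutant control library. PSK2, PSK4 and PSKR1 had log2 fold changes of 0.03, 0.14 and 0.14 and PSKR2 of -0.27, all with overlapping libraries. Without the third mutant control library these were -0.16, 0.04, 0.15 and -0.20. Within the replicate numbers on control medium the mutant library was the higher one for PSK1 and the lower one for PSK3 in all 3 numbers.

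On bleomycin all 7 genes had a log2 fold change below 0 in the triple mutant against Col-0. The median was -0.14 over the 7 genes and -0.01 over all tested loci. The sign changed under 2 of 20 alternatives for PSK2 and under 1 of 20 each for PSK3 and PSKR1. The libraries of every gene overlapped, where 5.1% of all tested loci did not overlap. In edgeR 0.0278% of all tested loci were called, and at an unadjusted p under 0.05 the count was 0 of the 7 genes and 226 loci. DESeq2 and limma voom also called 0 of the 7. The 226 loci are 1.05% of all tested, a smaller share than the threshold itself would give with no differences. That fit did not use the replicate numbers, so its lack of calls does not show that the genotypes are alike. The values ran from -0.36 for PSK5 (95% interval -1.12 to 0.40), -0.33 for PSK1 (-0.77 to 0.11) and -0.30 for PSK4 (-0.94 to 0.33) to -0.08 for PSK2. PSK5 had 4.36 to 7.85 CPM in the triple mutant and 6.48 to 8.83 CPM in Col-0 on bleomycin. The replicate numbers pair these libraries, and within them the mutant library was below the Col-0 library in all 3 numbers for PSK5, at 0.673 to 0.888 times its level, and for PSK1, at 0.716 to 0.886 times. With the replicate block the log2 values were -0.37 for PSK5 and -0.32 for PSK1, and neither was called (edgeR adjusted p = 1.00 for both).

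Whether the response to bleomycin differed between the genotypes was tested as an interaction, and 0 of the 7 genes and 0% of all tested loci were called in edgeR. At an unadjusted p under 0.05 edgeR counted 1 of the 7 genes and 377 loci, 1.75% of all tested, and DESeq2 and limma voom called 0 loci. The gene counted was PSK1, whose response was lower by 0.77 on the log2 scale in the triple mutant (value -0.77, SE 0.29, edgeR unadjusted p = 0.0197, adjusted p = 1.00). Without the third mutant control library that value was -0.51. For PSK5 the interaction was -0.23 with a 95% interval of -1.31 to 0.86 (-0.52 without that library), so the call in Col-0 and the missed call in the triple mutant are not shown to differ.

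PSK3 is the only gene of the 7 with more than 1 annotated transcript. The first, of 731 bases and 3 exons, and the second, of 535 bases and 4 exons, share the same 246 coding bases and so the same precursor. The first transcript was estimated at 1.67, 3.42 and 1.39 TPM in the triple mutant on bleomycin and 1.78, 1.00 and 0 TPM in the triple mutant on control medium. In Col-0 it was estimated at 0.821, 9.68 and 2.1 TPM on bleomycin and 3.45, 3.31 and 7.41 TPM on control medium. The second transcript was the larger estimate in 11 of the 12 libraries and lay between 8.17 and 18.6 TPM. The share of the first transcript was 0% to 11.8% of the PSK3 TPM in the mutant control libraries and 17.8% to 38.2% in the Col-0 control libraries. How often the shares of other transcripts lie apart in this way was not counted. The 0 is the third mutant control library, and the other 2 had 8.99% and 11.8%. These 2 shares rest on 19.8 and 34.7 estimated reads, and those of Col-0 on 60.2 to 143. On bleomycin the share was 6.96% to 29.5% in the triple mutant and 4.37% to 51.7% in Col-0, and the genotypes overlapped. The 2 transcripts share most of their sequence and the split is Salmon's estimate, so no test was made of it.

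**Figure D4:**
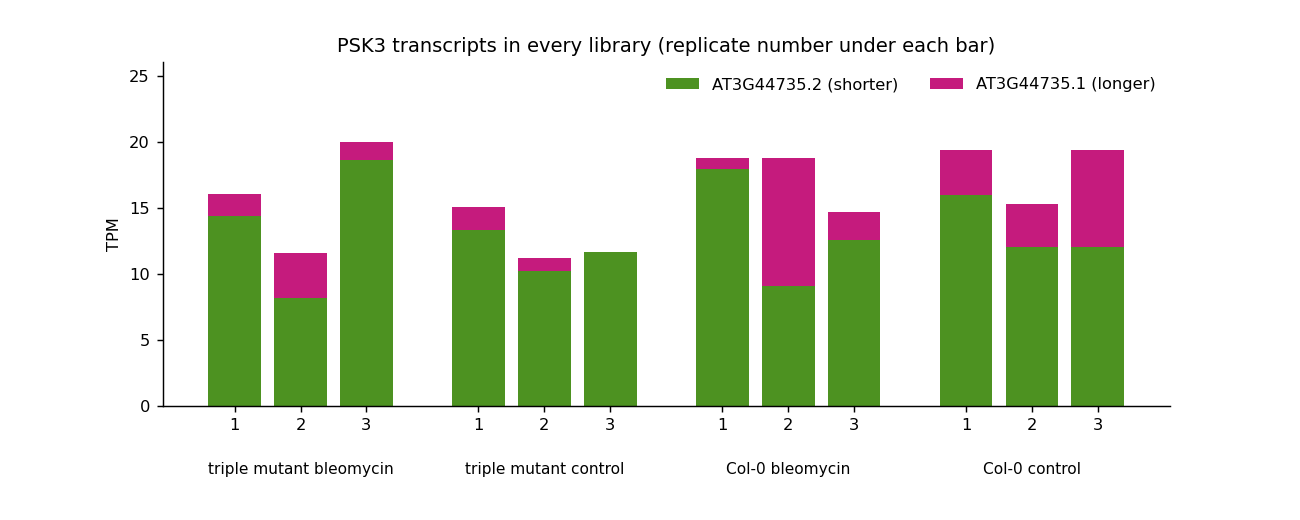
Estimated TPM of the 2 annotated PSK3 transcripts, stacked in a bar for each library and ordered by group. The second transcript lay between 8.17 and 18.6 TPM, and the first between 0 and 9.68 TPM.

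The other genes of the pathway were described from 3 lists. Of 10 genes for maturation, co-receptors and effectors, 9 passed the filter, and the protease gene SBT3.8 was at 0 reads in 11 of the 12 libraries. In the triple mutant on bleomycin edgeR called 1 of the 9 lower and none higher, where 3.81% of all tested loci were called lower and 4.2% higher. In Col-0 edgeR called none of the 9, where 6.75% of all tested loci were called. The fitted log2 fold change was above 0 for 6 of the 9 and below 0 for 3 in each genotype. At an unadjusted p under 0.05 there were 4 of the 9 in the triple mutant, where 25.1% of all tested loci were, and 5 of the 9 in Col-0, where 24.3% were. The median log2 fold change of the 9 was 0.27 in the triple mutant and 0.26 in Col-0, against 0.03 and 0.01 over all tested loci.

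TPST, the enzyme that all 5 precursors need, had 28.5, 35.5 and 29.7 CPM in the triple mutant on bleomycin and 34.6, 35.1 and 36.8 CPM on control medium there. In Col-0 it had 27.4, 32.0 and 31.2 CPM on bleomycin and 28.2, 34.1 and 29.9 CPM on control medium. The groups overlapped in both genotypes, and the log2 fold changes on bleomycin were -0.18 in the triple mutant and -0.02 in Col-0, with edgeR adjusted p-values of 0.375 and 0.938.

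SERK2, a co-receptor kinase, was the gene called lower in the triple mutant. It had 12.9, 14 and 12.2 CPM on bleomycin and 22.1, 24.6 and 25.0 CPM on control medium in the triple mutant, and it fell by 0.87 on the log2 scale (SE 0.15, edgeR adjusted p = 0.00589). In Col-0 it had 12.2, 15.9 and 14.4 CPM on bleomycin and 16.9, 23.2 and 20.0 CPM on control medium, also without overlap, with a value of -0.50 (SE 0.15, edgeR adjusted p = 0.0624). Without the third mutant control library the value in the triple mutant was -0.85 (adjusted p = 0.0195). With the replicate block the Col-0 value passed, at an adjusted p of 0.0166, and without the first Col-0 control library it passed at 0.0295. The interaction for SERK2 was -0.37 (SE 0.21, edgeR adjusted p = 1.00).

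Of 13 genes for other tyrosine-sulfated peptides and their receptors, 12 passed the filter and 1 was called lower in each genotype, with none called higher, where 3.81% of all tested loci were called lower in the triple mutant and 2.46% in Col-0. That gene was RGF3, which encodes a root meristem growth factor. It had 8.07, 6.91 and 10.6 CPM in the triple mutant on bleomycin and 15.2, 15 and 15.2 CPM in the triple mutant on control medium, and it fell by 0.83 on the log2 scale (SE 0.21, edgeR adjusted p = 0.0293). In Col-0 it had 6.18, 10.1 and 9.63 CPM on bleomycin and 14.3, 16.1 and 17.5 CPM on control medium, and it fell by 0.89 (SE 0.21, edgeR adjusted p = 0.0250). Every treated library was below every control library in both genotypes. The call was lost on leaving out single libraries: in the triple mutant without any control library or without the first or second bleomycin library (adjusted p 0.0603 to 0.109), and in Col-0 without the second control, the third control or the first bleomycin library (adjusted p 0.0840 to 0.103).

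All 3 ethylene response factors of the third list were called higher on bleomycin in both genotypes in edgeR. Of all tested loci, 4.2% were called higher in the triple mutant and 4.29% in Col-0. ERF115 is known as an activator of PSK5 in the quiescent centre, and ERF114 and RAP2.6L are its close relatives. ERF115 had 1.54, 3.14 and 1.33 CPM in the triple mutant on bleomycin and 0 reads in all 3 mutant control libraries (edgeR adjusted p = 0.000782, limma voom adjusted p = 0.0634), and 6.79, 10.9 and 2.98 CPM in Col-0 on bleomycin against 0.126 CPM or less in Col-0 on control medium (edgeR adjusted p = 0.000683). ERF114 had 2.64 to 3.57 CPM in the triple mutant and 6.68 to 15.2 CPM in Col-0 on bleomycin, and 0 reads in all 6 control libraries (edgeR adjusted p = 0.000196 and 4.8e-05). RAP2.6L rose by 0.62 in the triple mutant (SE 0.15, edgeR adjusted p = 0.0237) and by 0.83 in Col-0 (SE 0.15, edgeR adjusted p = 0.00656) on the log2 scale, and in the triple mutant its call was lost without the first or second control library or the second bleomycin library (adjusted p 0.0629 to 0.0965).

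PSK5 had 4.36 to 7.85 CPM in mutant libraries on bleomycin in which ERF115 was at 1.33 to 3.14 CPM. It had 6.48 to 8.83 CPM in Col-0 libraries on bleomycin in which ERF115 was at 2.98 to 10.9 CPM. The libraries of the genotypes overlapped for both genes, and neither gene was called between the genotypes on bleomycin in edgeR. The fitted ERF115 value was still lower in the triple mutant, at a log2 fold change of -1.78 (SE 0.55, edgeR unadjusted p = 0.00793). ERF114 was at -1.76 (SE 0.38, edgeR unadjusted p = 0.00132), with all mutant libraries below those of Col-0. Of all tested loci 5.1% did not overlap there. EdgeR did not call ERF114, and DESeq2 did (adjusted p = 0.0338). A link between the levels of ERF115 and PSK5 was not tested.

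The genes whose profile over the 12 libraries lay nearest to that of each phytosulfokine gene were found among 17460 genes with a mean of at least 2 CPM. The measure was the root mean square difference of log2 CPM after each gene's own mean was subtracted, and it is given with no test. For PSK5, whose own SD on this scale was 0.72, the nearest were SDR1 at 0.24, AT3G27110 at 0.25 and AT3G02930 at 0.28. For PSK4, with an SD of 0.56, they were CEN2, a centrin, at 0.17 and AT3G51730 and RALF1, a rapid alkalinization factor peptide, both at 0.18. For PSK1, with an SD of 0.34, they were AT1G54120 at 0.13, and TEM1, a transcription repressor, and AT1G53660, both at 0.17.

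The remaining genes varied less or were read less deeply. For PSK2, with an SD of 0.49, the nearest were AT4G12850 at 0.24, AT2G36430 at 0.27 and AT4G15070 at 0.29. For PSK3, with an SD of 0.30, they were AT4G30910 and AT5G24680, both at 0.15, and FUR1 at 0.17. For PSKR1, with an SD of 0.22, they were AT3G53490 at 0.08 and AT1G54890 and AT5G54780, both at 0.12. For PSKR2, with an SD of 0.20, they were AT5G08500 at 0.11 and AT1G29220 and AT2G04845, both at 0.12.

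The 250 bases before each annotated start were searched on both strands for 3 short motifs. The GCC box core GCCGCC, known from ethylene response factors, was in none of the 7 windows and in 1.87% of 27443 protein-coding promoters. The palindrome CTTNNNNNNNAAG, known from the DNA damage factor SOG1, was in none of the 7 and in 9.71% of promoters. The core AACGG of the element known from MYB3R factors was in PSK1 and PSKR2, once each and on the reverse strand, and in 20.6% of promoters. These counts say only which letters are in these windows.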

How the data were processed

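RNA of pooled root tips was sequenced in 12 libraries, 3 in each of 4 groups given by genotype and treatment labels. The authors quantified transcripts with Salmon 0.9.1, per the submitters' processing notes, and deposited for each library the estimated counts and TPM values per transcript, per the file headers. The genome build is not given in the sources used here. Transcript estimated counts were summed per locus and rounded to whole numbers. The 30576 transposable element transcripts of 88971 were left out, which held under 0.1% of reads. TPM was summed per locus for levels.

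Differences were tested with edgeR 4.0.16 (TMM, filterByExpr, quasi-likelihood F test, 1 fit over the 12 libraries) in R 4.3.3, with Benjamini-Hochberg adjustment over 21561 loci at 0.05. DESeq2 1.42.0, limma 3.58.1 and other settings served as alternatives. The script was tested on simulated data. The 7 genes and the lists were chosen with earlier results of these data known. Named by rule beside the 7 genes were the mutated genes, TPST, genes of the 3 pathway lists called in any comparison, and the 3 nearest profiles of each gene; the tissue markers and SBT3.8 are named outside this rule, BRN2, CASP1 and WOX5 after their values were seen.

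Deviations of same-numbered libraries from their group means correlated at 0.118 to 0.502 for bleomycin and control in Col-0, 0.106 to 0.247 for the genotypes on control medium, 0.335 to 0.590 for the genotypes on bleomycin, and 0.0458 to 0.279 for bleomycin and control in the triple mutant. For libraries of unlike number the highest correlations were 0.202, 0.0173, 0.0604 and 0.0512 in the same order. The numbers were taken as pairing the libraries where every same-number correlation was over 0.1, a finding from the data alone. The labels call the replicates biological, with no more said of their source. Replicates differed by more than sampling noise in every group.

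Sequences came from the RefSeq annotation of TAIR10.1. Of 56554 transcripts with the same name in both, 79.7% had the same length, and so did all 8 transcripts of the 7 genes. Whether counting used strand is not given in the sources used here.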

Additional observations from a re-analysis of the deposited data

How the results depend on the processing

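The number of the 7 genes called on bleomycin in Col-0 was 1, and it became 3 with no filter on low counts, 3 in the DESeq2 Wald test and 3 with the replicate block; with single libraries left out it ranged from 0 to 2. In the triple mutant it was 0, and it became 1 in the DESeq2 Wald test and 1 with the replicate block, where PSK5 had an adjusted p of 0.0389; it stayed at 0 with single libraries left out. The numbers do not pair the libraries of the triple mutant on the check used. In the genotype comparisons and the interaction 0 of the 7 were called under every alternative, the replicate block included. Of 693 alternatives for the 35 values of the 7 genes, 676 kept the side of the threshold, 6 lost a call, all for PSK5 in Col-0, 11 gained one, and none reversed a called value. RGF3 also lost its call on log2(TPM + 0.1) in both genotypes (adjusted p 0.0889 in the triple mutant and 0.0626 in Col-0), and with the compared groups only RGF3 lost it in Col-0 (0.0586) and RAP2.6L in the triple mutant (0.0697). Ranked by CPM instead of TPM, PSK1 stayed 1st and PSKR1 came 2nd in all 4 groups, PSK2 was lowest in all 4, PSKR2 was 4th on bleomycin and 3rd on control medium, and PSK3 was 6th on bleomycin and 5th on control medium.

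The loci called in all moved more. On bleomycin in Col-0 they numbered 1455, and 2716 in DESeq2, 3437 with the replicate block, 825 with the compared groups only, 786 on log2(TPM + 0.1) and 356 to 2081 with a library left out. In the triple mutant they numbered 1727, and 2871, 3633, 1239, 774 and 510 to 1853 in the same order. Between the genotypes there were 6 on control medium and 24 in DESeq2, and 6 on bleomycin, 22 in DESeq2, 10 with no filter, 10 with the replicate block and 4 with the compared groups only; the cause was not tested. PSK2 and the first PSK3 transcript rest on few reads, so small changes were not detectable there. On control medium PSK5 also rests on few reads, 73 to 136 per library in Col-0 and 56 to 138 in the triple mutant. All counts are reads, not molecules.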
